A study of Mus musculus with 3 samples.

Results

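Deubiquitinases are the proteases that take ubiquitin off proteins, and the transcripts of 65 genes selected by name were followed here in mouse embryonic stem (ES) cells. The table of read counts was searched for symbols that begin with Usp and a digit (51 genes), with Otud (8 genes) or with Uchl (4 genes), and for Bap1 and Mysm1. These were 65 of the 15311 genes in the table, and the rule itself uses symbols and no measured value. Usp3, Usp16, Usp21, Usp22, Bap1 and Mysm1, enzymes known to act on ubiquitylated histone H2A or H2B, were singled out. Usp6nl shares the name pattern but encodes a GTPase-activating protein and no protease. Of the 65 genes, 63 reached the minimum for testing, an average of 0.5 CPM over the 3 libraries. CPM are counts relative to the library total, corrected with TMM factors.

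The cells carried a YFP-tagged transgene of the histone variant H2A.Z from a CMV promoter controlled by doxycycline (1 µg/ml) through rtTA, and cells positive for YFP were sorted. Wild type (2 libraries) had unmutated H2A.Z, and K3R3 (1 library) had the C-terminal lysines K119, K120 and K123 changed to arginine. Both kinds of line also carried a lentiviral hairpin against the 3′ untranslated region of endogenous H2A.Z, selected with blasticidin. The strain label reads V6.5 (129SvJaexC57BL/6) and the treatment protocol names KH2 ES cells. Which of 2 described hairpins these libraries had, and whether a line was 1 clone, is not given in the sources used here. Feeder cells (irradiated embryonic fibroblasts) were left out for the final passage. Polyadenylated RNA was sequenced. No label ties the wild-type libraries to separate cultures. The p-values then measure the spread among these samples alone, and it may be technical.

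Ubiquitin is joined to histone H2A mainly by the RING ligases of Polycomb complex PRC1 and to H2B by the Rnf20 and Rnf40 ligases, and deubiquitinases reverse both marks. USP22 works inside the SAGA coactivator, held active by ATXN7, ATXN7L3 and ENY2. BAP1 needs an ASXL partner and opposes PRC1 on H2A. USP16, USP21, USP3 and the metalloprotease MYSM1 also act on ubiquitylated H2A, USP16 and USP3 being tied to the cell cycle. USP10 has been reported to remove ubiquitin from H2A.Z itself. The K3R3 form of H2A.Z cannot carry ubiquitin on the mutated lysines. The series compares it with the wild type and asks, by its title, how this modification bears on poised chromatin.

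Counts in the table summed to 21614693 and 25426228 for wild-type replicates 1 and 2, the order used for every pair of values below, and to 24718223 for K3R3. H2afz, the target of the hairpin, stood at 219 and 232 against 222 CPM, which checks neither the knockdown nor the labels because the transgene can add coding reads. The 10 ES cell markers examined were all present (Pou5f1 at 500.5 and 299.6 against 311 CPM), and their summed level was 6110 and 5464 against 4139 CPM, with 7 of 10 below both wild-type libraries (beside 34.2% of all genes, and 61.3% of genes at 100 CPM or more). Of 12 fibroblast markers 10 were measured, with sums of 1570 and 1496 against 1142 CPM, 5 above and 3 below both. The sums were mostly Fn1 (1229 and 1197 against 864 CPM) and Vim (246 and 188 against 164 CPM), which ES cells and their derivatives also express. Both genes lay below both wild-type libraries, as did Pdgfra. Col1a1, Col1a2, Col3a1, Pdgfrb and Thy1 lay above both, so the sums do not give the direction of most markers. Apart from Fn1 and Vim, the markers stood at 49.4 CPM or less in each library. The edgeR quasi-likelihood fit called Tfcp2l1, Klf4, Sox2 and Dppa5a lower and Thy1 higher in K3R3, of which DESeq2 called 1, Tfcp2l1 (adjusted p = 0.0248). The part of these marker differences in the results below was not tested, and fewer cells of a type cannot be told apart from less RNA per cell.

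The table classes each gene by its promoter in ES cells as active or as bivalent, which means carrying an activating and a Polycomb mark together. Of the 65 genes, 56 were classed as active, 4 as bivalent (Usp3, Usp35, Usp43 and Otud7a), and 5 had no class (Usp17l5, Usp37, Usp50, Usp54 and Uchl4). RefSeq promoters (build GRCm38.p6, from 250 bases before to 50 after the start) were matched for 50 of the 65. They held a median of 27.5 CG dinucleotides (range 2 to 63), and 84.0% had at least 10, beside a median of 20.0 and 78.9% over the 10674 genes of the table with an entry. At least 1 CG was present in 100% of the 50 and in 99.3% of those 10674. CG reads the same on both strands. The 30 bases just before the start are shown for singled-out and bivalent members with an entry, and for a pair of Usp22 paralogues, so that the promoters behind the class labels can be seen. Capitals mark CG.
Usp16 (active, chr16:87454955-87454984, + strand): ttcccacaatgcCGCGttcCGgaagttgcc
Usp21 (active, chr1:171287962-171287991, - strand): gattcCGagtgtgggCGCGcaggCGcctaa
Bap1 (active, chr14:31251459-31251488, + strand): tgatgatgaCGttgtaCGtcCGgCGCGggc
Mysm1 (active, chr4:94979101-94979130, - strand): CGccccCGgtccCGcccCGcCGcatctCGc
Usp3 (bivalent, chr9:66593116-66593145, - strand): gtgggCGgggcCGcCGgagaaggCGgaagc
Usp35 (bivalent, chr7:97332110-97332139, - strand): ttaaaggggaCGCGgccCGactgggagctc
Otud7a (bivalent, chr7:63444742-63444771, + strand): ggggCGgagCGCGgCGcagccaggaaggCG
Usp27x (active, chrX:7375831-7375860, - strand): ctggaggaggCGgagaCGgCGgagaCGgga
Usp51 (active, chrX:153006439-153006468, + strand): cccttgtgaccagcccCGaagagaggtcat
The Usp51 window held 1 CG and its whole promoter 6, the fewest of these 9 promoters. The Usp3 window held 4 and its promoter 22, between the 17 of Usp16 and the 50 of Bap1, so bivalent Usp3 lay inside the range of the active members shown. Of the other bivalent promoters shown, that of Usp35 held 30, also inside that range. The Otud7a promoter held 51, above every active promoter shown.

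The histone deubiquitinases were all expressed, and none passed the test in K3R3. Usp22 was the most abundant per transcript length, at 30.0 and 31.4 RPKM (counts scaled to gene length and library size, as deposited) in wild type and 34.1 in K3R3. Usp16 followed at 15.2 and 18.04 against 18.7 RPKM, and Bap1 at 16.1 and 15.2 against 17.4 RPKM. The ranges of these last genes overlap, so their order is not resolved. Usp3 stood at 9.04 and 12.9 against 14.9 RPKM. Usp21 stood at 8.45 and 10.4 against 10.8 RPKM, and Mysm1 at 9.32 and 9.17 against 9.39 RPKM. Usp3, Usp21 and Mysm1 overlapped one another and lay below Usp16 and Bap1 in every library. By mean RPKM the 6 genes fell between percentiles 67.5 and 87.6 of the table, with Mysm1 at the bottom and Usp22 at the top.

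**Figure D1:**
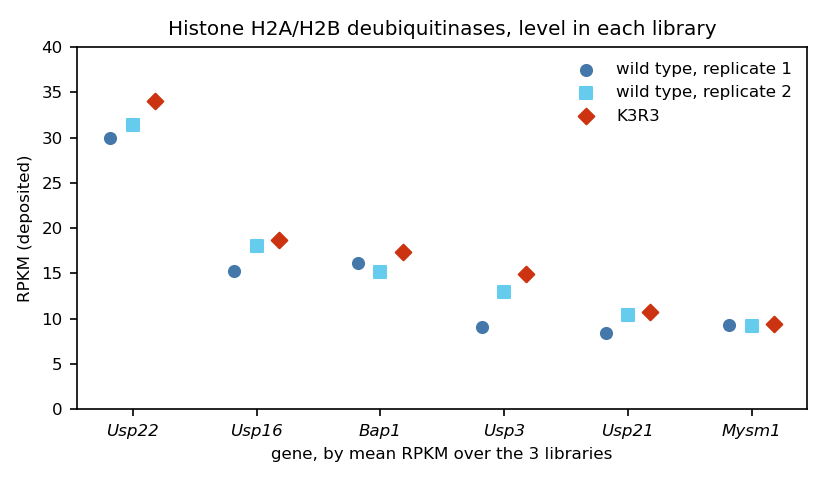
Deposited RPKM (linear axis) of the histone H2A/H2B deubiquitinases in each of the 3 libraries, 1 point per library and no error bar because K3R3 has 1 library. Usp22 lies at 30.0 to 34.1 RPKM, above the other genes, and on this scale the K3R3 point of each gene is the highest, against 2 of 6 genes on the TMM scale.

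On the RPKM scale K3R3 lay above both wild-type libraries for 6 of 6 genes, but this depends on the scaling. RPKM divides by a library total that is larger than the sum of the table, and it uses no TMM factor. The table made up a similar part of that total in each library (66.2% and 66.9% in wild type, 67.1% in K3R3). The TMM factors differed more, at 0.973 and 0.976 in wild type and 1.053 in K3R3. With those totals and no TMM factors, the log2 change of the median gene moved up by 0.12. On the TMM scale used for the test, 2 of the 6 lay above both wild-type libraries (Usp3 and Usp22), 1 below both (Mysm1) and 3 between them, and the median log2 change of the 6 was 0.04, or 0.16 with the totals behind RPKM. Wild-type replicate 2 lay a median of 0.14 above replicate 1 for these genes.

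Usp3, the bivalent member of the 6, had the largest difference among them. It stood at 30.9 CPM in wild-type replicate 1, 43.5 in replicate 2 and 46.5 in K3R3, so most of the spread lay between the wild-type replicates. The fitted log2 change was 0.32 (95% interval -0.20 to 0.84; Benjamini-Hochberg adjusted p = 0.84 from the edgeR quasi-likelihood fit), and it was 0.59 against replicate 1 and 0.09 against replicate 2. Bap1 stood at 85.2 and 79.2 CPM against 83.7 in K3R3, inside the wild-type range, with a log2 change of 0.03 (interval -0.42 to 0.47). Usp22 stood at 207 and 214 CPM against 214, a log2 change of 0.03 (interval -0.36 to 0.41). Usp16 stood at 68.9 and 80.6 against 77.2 CPM (0.05, interval -0.40 to 0.50). Usp21 stood at 28.6 and 34.7 against 33.3 CPM (0.07, interval -0.49 to 0.63). Mysm1 stood at 107 and 104 against 98.6 CPM, a log2 change of -0.10 (interval -0.53 to 0.33) that became 0.02 with the totals behind RPKM. Each interval includes 0 and spans changes in both directions, so these data do not show that the levels are equal. Adjusted p-values of the 5 genes other than Usp3 were all 0.999 in the same edgeR fit.

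Over all 63 genes tested, 0 were called higher and 0 lower, beside 2.57% of all 13829 genes tested (2.02% higher and 0.542% lower). At an unadjusted p under 0.05 there were 7 (11.1%, beside 11.2% of all genes), 2 of them higher (7.9% of all genes) and 5 lower (3.33% of all genes), and DESeq2 called 0. The median log2 change was -0.05, with an interquartile range of -0.20 to 0.12, and over all genes it was -0.01. The K3R3 level lay above both wild-type libraries for 17 genes (27.0%, beside 33.9% of all genes) and below both for 25 (39.7%, beside 34.2%), and between them for 21 (33.3%, beside 31.9%). This split turned to 30 above and 15 below with the totals behind RPKM. A level at least 1.5-fold above each wild-type library, with 1 count added, was found for Usp29 and Usp27x (2 genes, 3.17%, beside 10.9% of all genes). A level at least 1.5-fold below was found for Usp17l5 (1 gene, 1.59%, beside 2.02%). Usp29 reached the minimum of 0.5 CPM only through K3R3 (wild-type mean 0.337 CPM), and Usp17l5 only through wild type (0.154 CPM in K3R3). Their places in these counts therefore depend partly on the filter. The wild-type replicates differed by a median absolute log2 value of 0.20 over the 63 genes, and K3R3 differed by 0.21 and 0.17 from replicates 1 and 2. The distance of K3R3 from either replicate was thus about that between the replicates. This was also so over all genes tested, at 0.25 between the replicates and 0.27 and 0.24 for K3R3.

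**Figure D2:**
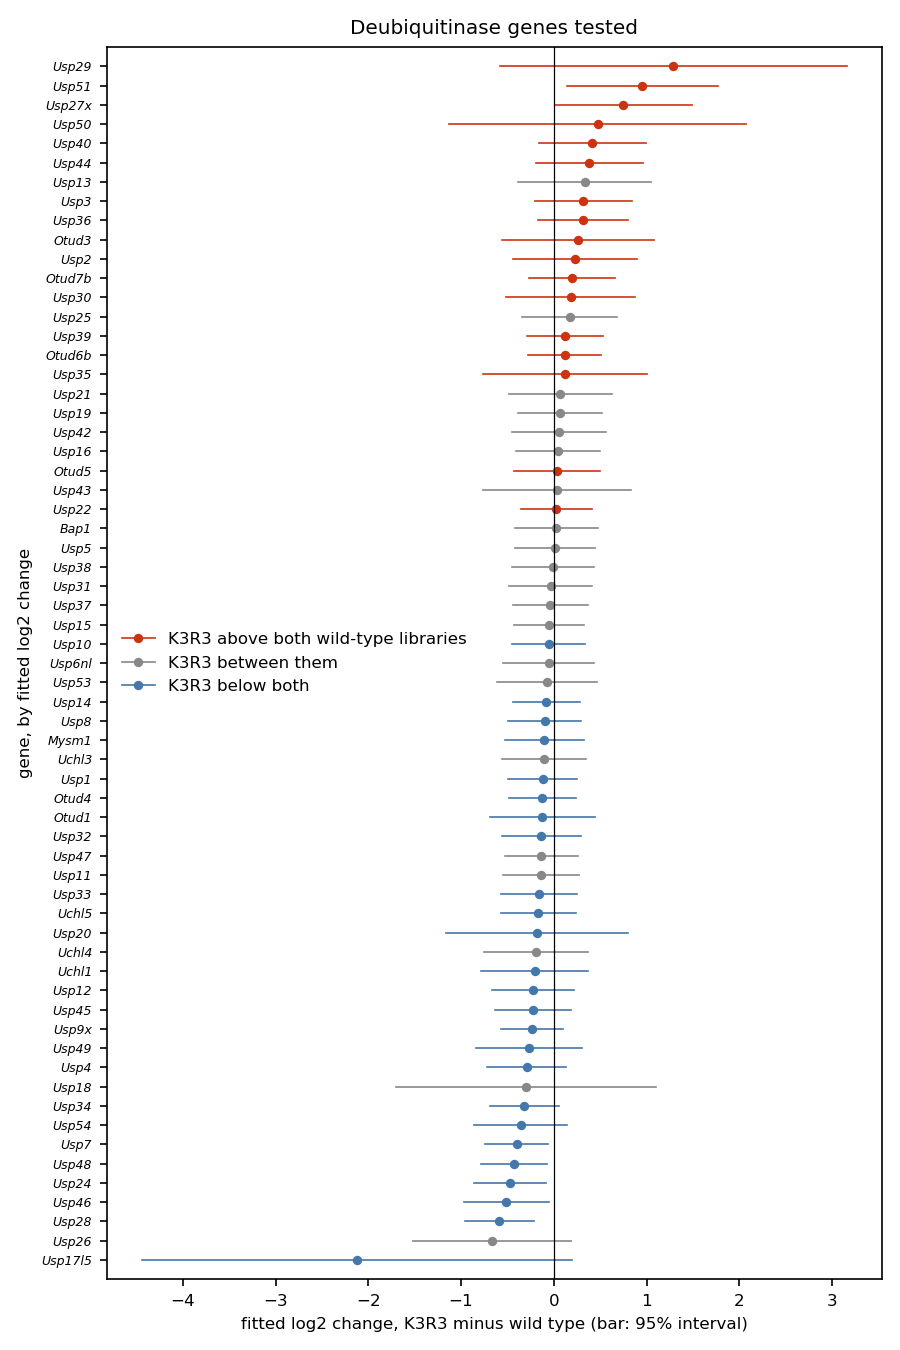
Fitted log2 change of each of the 63 genes tested, K3R3 minus wild type, with its 95% interval, sorted and coloured by where the TMM-scaled K3R3 level lies against the wild-type libraries. The intervals of Usp51 and Usp27x lie above 0 and those of Usp28, Usp46, Usp24, Usp48 and Usp7 below 0, before adjustment for 13829 genes.

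The 2 genes on the higher side at an unadjusted p under 0.05 were Usp27x and Usp51, X-linked paralogues of Usp22 whose products use the same ATXN7L3 and ENY2 partners. Usp27x stood at 6.14 and 7.13 CPM in wild type and 11.2 in K3R3 (129, 177 and 291 counts). Its K3R3 value was above both wild-type values, which lay close together. The log2 change was 0.75 (interval 0.01 to 1.49; Benjamini-Hochberg adjusted p = 0.43 from the edgeR quasi-likelihood fit). Usp51 stood at 2.57 and 5.84 CPM in wild type and 8.18 in K3R3 (54, 145 and 213 counts). It differed more than 2-fold between the wild-type replicates, and its log2 change of 0.95 (interval 0.14 to 1.77; adjusted p = 0.28 by the same test) was 1.66 against replicate 1 and 0.48 against replicate 2.

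Set against Usp22 within each library, a measure that no library scaling can move, the paralogues made up a larger part in K3R3. Both were taken up for their higher K3R3 values in these same libraries, so the larger part follows from that choice and is no separate evidence. Of the summed RPKM of Usp22, Usp27x and Usp51, Usp22 made up 93.9% and 90.9% in wild type and 87.2% in K3R3. Usp27x made up 3.82% and 4.16% against 6.24%, and Usp51 2.31% and 4.91% against 6.58%. The K3R3 share of Usp22 was the lowest of the 3, and the wild-type shares differed by about as much as replicate 2 and K3R3 did. In every library Usp22 remained the main transcript of the trio. The difference between the paralogues' changes was not tested.

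USP12 and USP46 are another pair of paralogues, both switched on by the WD-repeat protein WDR48 and both reported to act on H2A and H2B. Usp46 stood at 75.7 and 101 CPM in wild type and 62.2 in K3R3, below both, with a log2 change of -0.51 (interval -0.97 to -0.05; Benjamini-Hochberg adjusted p = 0.33 from the edgeR quasi-likelihood fit). It was -0.28 against replicate 1 and -0.71 against replicate 2. Usp12 stood at 95.05 and 96.7 CPM against 82.2 in K3R3, a log2 change of -0.22. The ratio of Usp12 to Usp46 in RPKM was 0.948 and 0.720 in wild type and 0.998 in K3R3, so the wild-type replicates differed more from each other than replicate 1 from K3R3. Wdr48 stood at 97.0 and 110.3 against 98.3 CPM, inside the wild-type range.

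**Figure D3:**
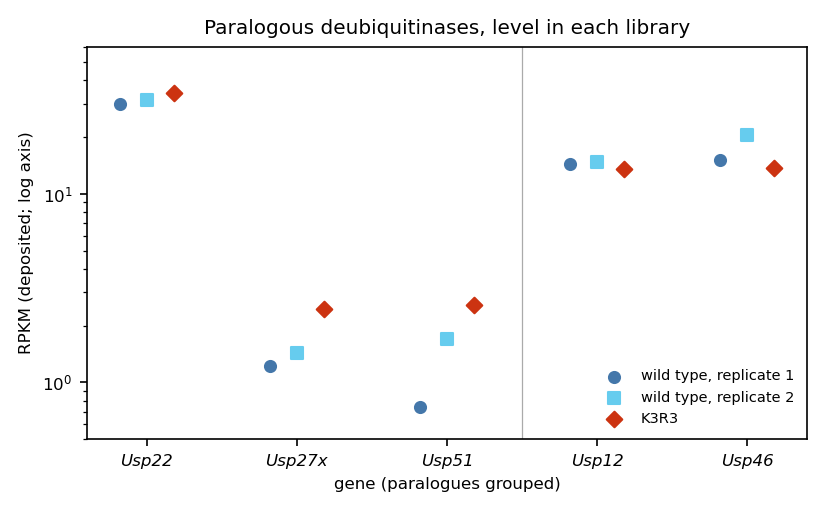
Deposited RPKM (log axis) of the Usp22 paralogues and of the Usp12 and Usp46 pair in each of the 3 libraries, 1 point per library. Usp27x and Usp51 have their highest point in K3R3 (2.44 and 2.57 RPKM) and Usp46 its lowest (13.6 RPKM).

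Of the 5 genes on the lower side at an unadjusted p under 0.05, 4 were abundant, with a mean above 100 CPM. Usp28, which stabilises MYC and binds the repair protein 53BP1, was the gene nearest to the threshold of the test. It stood at 409.5 and 490.3 CPM in wild type and 299.7 in K3R3, well below both. The log2 change was -0.59 (interval -0.95 to -0.22; Benjamini-Hochberg adjusted p = 0.0615 from the edgeR quasi-likelihood fit), and DESeq2 size factors gave an adjusted p of 0.0548. It was -0.46 with the totals behind RPKM (adjusted p = 0.211 by the same edgeR test), and DESeq2 gave 0.384.

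Usp7, which controls MDM2 and p53 and is also linked to PRC1 complexes, was the most abundant member at 115 and 113 RPKM in wild type and 94.3 in K3R3. On the CPM scale it stood at 973 and 939.8 against 725, a log2 change of -0.40 (interval -0.74 to -0.06). Usp48, whose product trims the ubiquitin that BRCA1 places on H2A, stood at 518 and 540.3 CPM against 394 (log2 change -0.43, interval -0.79 to -0.07). Usp24, a large deubiquitinase tied to the DNA damage response, stood at 273 and 250.4 CPM against 188 (log2 change -0.47, interval -0.86 to -0.09). The wild-type replicates of Usp7, Usp48 and Usp24 lay close together, with K3R3 below both. Their adjusted p-values were 0.28, 0.27 and 0.24 from the edgeR quasi-likelihood fit after Benjamini-Hochberg adjustment. With the totals behind RPKM the changes of these 3 genes were -0.28, -0.30 and -0.35. In the authors' deposited table Usp28 and Usp24 had unadjusted p-values of 0.0210 and 0.0408, the 2 members under 0.05 there (3.08% of the 65, beside 4.86% of the table).

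The changes are given here by range of level, with no test of a trend. At a mean of 100 CPM or more the median log2 change was -0.13 over 24 deubiquitinase genes and -0.13 over 2459 active genes. K3R3 lay below both wild-type libraries for 17 of these 24 (70.8%), beside 61.3% of all genes in that range. From 10 to 100 CPM the medians were 0.03 over 27 members and -0.05 over 5312 active genes. From 2 to 10 CPM they were 0.19 over 8 members and 0.15 over 2173 active genes, and below that 0.09 over 4 members and 0.40 over 1040 active genes. In the top range 4 of 24 members had an unadjusted p under 0.05 (16.7%, beside 8.69% of all genes there). These were Usp7, Usp24, Usp28 and Usp48.

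**Figure D4:**
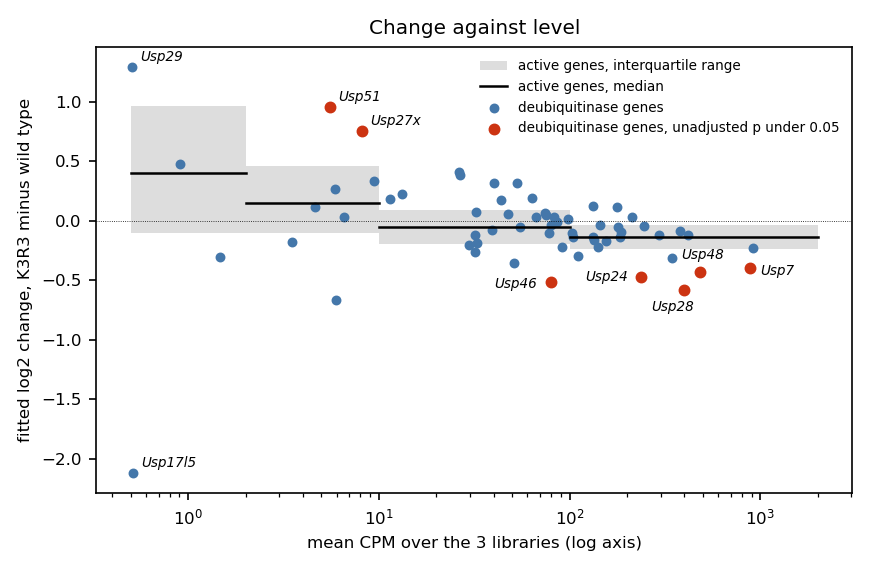
Fitted log2 change (K3R3 minus wild type) against the mean CPM over the 3 libraries (log axis) for the 63 genes tested, over the median and interquartile range of active genes in 4 ranges of level. The members at 100 CPM or more centre on -0.13, the median of active genes there.

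Among the other genes listed for reports of an action on histone ubiquitin, Usp44, an H2B deubiquitinase of dividing and pluripotent cells, stood at 19.8 and 28.7 CPM in wild type and 31.7 in K3R3 (log2 change 0.38). Usp49, its relative, stood at 33.2 and 34.6 against 28.2 CPM (-0.27). Usp36, a nucleolar enzyme, stood at 49.8 and 48.4 against 61.0 CPM (0.31), above both wild-type values. Usp26, a testis gene on the X chromosome, stood at 10.1 and 3.505 against 4.26 CPM, and Usp11 at 103 and 171 against 125 CPM. For both of these the difference lay between the wild-type replicates, with K3R3 inside their range. This list had 11 members, of which 5 lay above both wild-type libraries and 4 below, beside 33.9% and 34.2% of all genes. It is not complete: Usp48 and Usp10, also described here as acting on histone ubiquitin, were listed under other roles. Both lay below both wild-type libraries, so the split depends on how genes were listed. The place of Usp29 in it is unsure.

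Usp10, whose product has been reported to act on H2A.Z, stood at 181 and 182 CPM in wild type and 175 in K3R3. The K3R3 value was slightly below both, and the log2 change of -0.05 had an interval of -0.45 to 0.34.

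Among members with housekeeping roles, the proteasome-bound Usp14 and Uchl5, which trim ubiquitin from substrates as they are degraded, stood at 374 and 398 against 364 CPM and at 145 and 178 against 144 CPM. Usp5, Uchl1, Uchl3 and Uchl4, which recycle ubiquitin chains and adducts, had log2 changes of -0.21 to 0.01, with 3 of 4 inside the wild-type range. Uchl3 was among the 5 most abundant members (48.1 and 63.9 against 56.6 RPKM) along with Usp7, Usp28, Usp14 and Uchl5. Uchl4 is a close copy of Uchl3, so reads of this pair may have been split or lost and their values are uncertain.

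Of 9 members tied to membrane traffic, 3 lay above and 4 below both wild-type libraries, with log2 changes between -0.18 and 0.47. The shares over all genes, 33.9% above and 34.2% below, are the background for each such count by role. Of 10 tied to signalling, 1 lay above and 4 below. Usp9x, an X-linked enzyme of TGF-beta and Wnt signalling, stood at 947 and 989 CPM against 825 (log2 change -0.23, interval -0.56 to 0.10). Usp18, which removes the ubiquitin-like protein ISG15 and is induced by interferon, stood at 2.47 and 0.685 CPM against 1.27, inside a wide wild-type range. Usp39, a splicing factor without protease activity, stood at 119.9 and 138 against 140.3 CPM, and Usp54 at 62.6 and 48.1 against 43.2 CPM. Of the 6 OTU-domain members tested, 4 lay above and 2 below both wild-type libraries, all within log2 changes of -0.12 to 0.26. Usp40, with no role assigned here, stood at 20.5 and 26.8 against 31.5 CPM (log2 change 0.41).

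The fitted changes of the bivalent members that were tested lay under the median of their class, but the interval of each includes that median. Bivalent genes in the table had a median log2 change of 0.65 (interquartile range 0.15 to 1.24) over 1671 genes. The 3 bivalent members tested had changes of 0.32 (Usp3, interval -0.20 to 0.84), 0.12 (Usp35, -0.77 to 1.00) and 0.03 (Usp43, -0.77 to 0.83). Usp3 thus lay inside the interquartile range of the class. Its mean level was 12.3 RPKM, beside a class median of 0.650 RPKM. Usp35 stood at 4.52 and 4.47 against 4.88 CPM, and Usp43 at 5.90 and 7.17 against 6.68 CPM, inside the wild-type range. Otud7a, the bivalent gene below the minimum level, had 1 and 7 counts against 14, a ratio of 3.08 to the pooled wild type with a counting interval of 1.21 to 8.48. The difference between these members and the class was not tested. Usp37, with no class, stood at 132 and 159 against 141 CPM, inside the wild-type range.

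Genes with few reads gave wide intervals, and those of count ratios cover counting error only. Usp29, an imprinted neighbour of Peg3, had 4 and 12 counts against 22 (ratio 2.42, counting interval 1.21 to 4.93). This gene was tested only because of its K3R3 level, as its wild-type mean of 0.337 CPM was under the minimum. The edgeR fit adds a spread between replicates, taken from the trend over genes and not from the gene itself. It gave a fold of 2.44 with an interval of 0.668 to 8.93 and an adjusted p of 0.78. Usp17l5, of the rapidly multiplied USP17 family, had 18 and 13 counts against 4 (ratio 0.227, counting interval 0.0583 to 0.643), and the edgeR fit gave a fold of 0.230 with an interval of 0.0461 to 1.15 and an adjusted p of 0.54. Because the family is repetitive its reads may be shared. The related Dub1 had 22 and 16 counts against 12, and Dub1a 10 and 14 against 11. Usp50 had 23 and 13 counts against 29, and its low value was that of wild-type replicate 2 alone. Otud6a, the other gene below the minimum, had 5 and 3 counts against 8.

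Of 100 related genes tested in 7 lists of partners, opposing ligases, ubiquitin genes and other deubiquitinase families, 1 was called, Asxl3. This gene encodes the least abundant ASXL partner of BAP1. It stood at 2.14 and 3.18 CPM in wild type and 8.07 in K3R3 (45, 79 and 210 counts), above both. It rose by 1.59 log2 units (SE 0.44; Benjamini-Hochberg adjusted p = 0.0188 from the edgeR quasi-likelihood fit), beside 2.02% of all genes called higher. Asxl3 was classed as bivalent, a class in which 175 of 1671 genes were called higher, and DESeq2 did not call it (adjusted p = 0.384). The abundant partners Asxl1 (292 and 251 against 214 CPM) and Asxl2 (206 and 169 against 159.8 CPM) lay below both wild-type libraries without passing the test. Per length Asxl3 remained far below them, at 0.487 RPKM in K3R3 against 22.6 for Asxl1 and 12.7 for Asxl2. Hcfc1, which docks BAP1 to chromatin factors, stood at 386 and 389.5 against 378 CPM.

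No member of the other lists was called. Of 17 SAGA genes the median log2 change was -0.04. Atxn7l3 stood at 85.2 and 73.3 against 76.8 CPM, Eny2 at 67.8 and 69.7 against 56.6 CPM, and Atxn7 at 17.9 and 21.8 against 22.1 CPM. Of the 19 H2A ligase genes the median was -0.15, with 13 below both wild-type libraries, beside 34.2% of all genes. That share was 61.3% of genes at 100 CPM or more, where the median was -0.13. It was 37.6% from 10 to 100 CPM and 18.6% from 2 to 10 CPM. Bmi1, Dzip3, Pcgf2, Ring1, Rnf169 and Rnf8, with means under 100 CPM, were among the 13, while Pcgf1 and Pcgf5 were not. Rnf2, the catalytic subunit of PRC1, stood at 267 and 288 against 246 CPM and its less abundant relative Ring1 at 4.23 and 4.19 against 2.77 CPM. Of 12 genes of H2B ubiquitylation the median was -0.01, with Rnf20 at 107 and 105 against 103 CPM and Rnf40 at 39.7 and 37.0 against 39.99 CPM. The medians were -0.06 over 8 cofactors of USP enzymes, -0.18 over 6 ubiquitin and E1 genes, and -0.06 over 28 genes of other deubiquitinase families. At an unadjusted p under 0.05 the 100 genes held 2 higher (Asxl3 and Tnfaip3) and 4 lower (Atxn7l3b, Kat2b, Huwe1 and Fam63a), beside 7.9% and 3.33% of all genes.

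**Figure D5:**
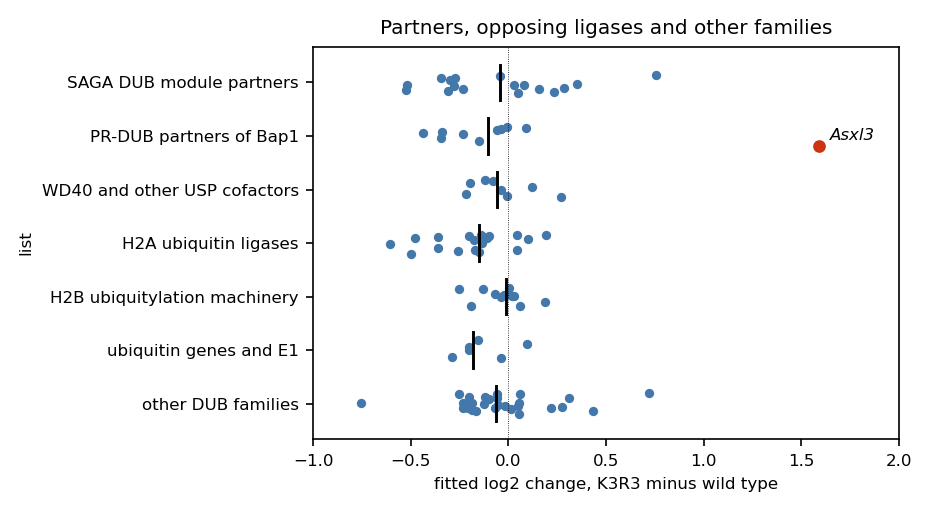
Fitted log2 change (K3R3 minus wild type) of the related genes by list, 1 point per gene with random vertical spread, and the list median as a bar. Asxl3, at 1.59, is the gene that passed the test, and the list medians lie between -0.18 and -0.01.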

How the data were processed

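The authors deposited raw read counts for 3 RNA-seq libraries. The submitters' processing notes name HTSeq 0.5.4p1 and build mm9. Aligner, annotation and strand setting are not given in the sources used here. RPKM values deposited by the authors use 1 larger total per library, of which the table's counts make up 66.2% to 67.1%. The authors also deposited their own comparison as a fold ratio, a log2 value and an unadjusted p-value (DESeq 1.10.1 per the submitters' processing notes). By their sign, opposite to the counts for 100% of 1300 genes changed above 2-fold, the deposited fold and log2 values set wild type over K3R3, so directions here come from the counts. The lowest count was 1 in each library.

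Counts were fitted with edgeR 4.0.16 in R 4.3.3 (TMM, mean CPM of at least 0.5, 13829 genes), with a two-sided quasi-likelihood test and a threshold of 0.05 after Benjamini-Hochberg adjustment. With 1 residual degree of freedom, the spread comes from the 2 wild-type libraries, and K3R3, with its single library, was taken to share it. Prior degrees of freedom were infinite, so intervals (95%, from the SE) and p-values follow the dispersion trend. They do not widen for a gene whose own wild-type replicates differ more, such as Usp51. Log2 values against single libraries use a prior count of 1. Counting ratios have exact conditional intervals. On simulated data the fit called 44% of genes with a true log2 change of 1 and 30.4% of those at -1. It called 89.8% at 2 and 77.1% at -2, with 8 false calls. The simulated counts were drawn from the fitted dispersion trend, with K3R3 given the same spread as wild type and genes of all levels mixed. The assumptions of the fit held there by construction, so the rates and false calls do not measure its error on the real libraries. Many changed genes were missed even so, and a gene that was not called may have changed. Alternatives were DESeq2 1.42.0, DESeq2 size factors, the totals behind RPKM without TMM factors, other filters, a likelihood ratio test and each wild-type library left out.

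Members and lists were chosen with earlier results of these data known. Named were the singled-out genes, called genes, the 6 largest changes each way outside the wild-type range, the 5 highest and 3 lowest RPKM, members not classed active or below the minimum, Usp9x, and 11 partners and ligases. Usp10, Usp11, Usp12, Usp18, Usp26, Usp36, Usp39, Usp49, Dub1, Dub1a and related genes outside the 11 (Tnfaip3, Atxn7l3b, Kat2b, Huwe1, Fam63a) were added after their values were seen. Usp9y was not analysed here.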

Additional observations from a re-analysis of the deposited data

How the results depend on the processing

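No paired analysis was possible because K3R3 has 1 library with no replicate number. The run with the totals behind RPKM also left out the TMM factors. No deubiquitinase gene was called under any alternative run with a test (DESeq2 size factors, totals behind RPKM, no filter, a minimum mean CPM of 2, DESeq2, likelihood ratio test). DESeq2 called 65 of all genes where edgeR called 355, and 0 related genes where edgeR called 1 (Asxl3). With the totals behind RPKM the median log2 change moved from -0.055 to 0.069 over the deubiquitinase genes and from 0.037 to 0.160 over the 6 histone deubiquitinases, which is the shift of all genes, and 3 members in place of 7 had an unadjusted p under 0.05. Leaving out a wild-type replicate gave medians of -0.088 to -0.012 and -0.028 to 0.108 for these 2 sets. Among 39 named genes tested, the sign of the change differed for 8 with the totals behind RPKM, for 4 without replicate 1 and for 5 without replicate 2, none of them called. The 3 libraries limit the precision: 95% intervals of the histone deubiquitinases spanned log2 changes of -0.53 to 0.84.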
